A study of Mus musculus with 2 samples.

Results

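The 10 genes described here write, copy, read and remove methyl groups on cytosine: the methyltransferase genes Dnmt1, Dnmt3a, Dnmt3b and Dnmt3l, the cofactor genes Uhrf1 and Uhrf2, the dioxygenase genes Tet1, Tet2 and Tet3, and the glycosylase gene Tdg. They were taken by symbol from a table of 16803 genes, and all 10 were in it. NE4C, the line used, is an established line of mouse neural stem cells cloned from embryonic forebrain lacking p53. Both cultures were grown in Eagle MEM on poly-L-lysine, 1 as a normal control and 1 treated with HTL (homocysteine thiolactone, the cyclised product of homocysteine, which attaches to lysine residues). Neither its dose nor its duration is in the labels. Total RNA of each culture was sequenced as 1 library, with 10350646 control reads and 9102057 HTL reads assigned to genes.

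Each group held 1 library, so the differences have no replicate check, and all intervals and tests cover counting error only. A test on the reads compares these 2 libraries, not the conditions. A gene is called where its adjusted p was at most 0.001 in a two-sided exact binomial test with Benjamini-Hochberg adjustment over 13442 genes, and its log2 ratio was at least 1 in size. Ratios are HTL over control, after scaling each library to its total. Since these are bulk cultures, a smaller number of cells of a type and less RNA per cell cannot be told apart.

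DNA methylation is copied after each round of replication by DNMT1, which UHRF1 guides to the hemimethylated sites left behind the fork. DNMT3A and DNMT3B place methyl groups on sites that had none, and DNMT3L, which has no catalytic activity of its own, helps them in germ cells and early embryos. TET1, TET2 and TET3 oxidise 5-methylcytosine stepwise with iron and 2-oxoglutarate, and TDG cuts out the most oxidised forms so that base excision repair can put cytosine back. The methyl groups come from S-adenosylmethionine, and its spent form is broken down to adenosine and homocysteine.

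The labelled cell type was checked on marker genes. Nes, a neural stem cell marker, had 1617 control and 1365 HTL reads (25.1 and 24.1 FPKM) and Msi1 617 and 555. Pax6 had 69 and 66, and Fabp7, a radial glia gene, 2 in each library. Sox2, Sox1 and Vim (the last named after its values were seen) were called lower, with log2 ratios of -1.46, -1.78 and -1.01. Vim lost its call under all 3 other scalings (-0.88 with TMM) and Sox1 with FPKM + 1 (-0.70). Prom1, a surface marker, was at 0.51 and passed the adjusted p alone. Of the 9 tested 6 were not called, with a list median of -0.11, or 0.02 under TMM scaling. The 10 neural stem cell markers together went from 604 to 467 CPM (reads scaled to the library total). Pou5f1, a pluripotency factor that neural stem cells do not usually express, stood at 1870 and 2114 FPKM. The summed pluripotency markers went from 2479 to 2849 CPM, of which Pou5f1 had 25077 of 25656 control reads. Their median log2 ratio was -0.11, and 0 of 5 tested were called. Nanog was at -0.68, Pou5f1 at 0.21 and Esrrb at 1.12 (28 and 54 reads, adjusted p of 0.00141 in the exact binomial test), and 1 was called higher under TMM scaling. Dppa4 had 16 and 13 reads, Fgf4 34 and 18 and Dppa5a 1 in each library, and Zfp42 was not in the table. The cells are therefore called by the name of the line. Of 7 neuron markers, with a median of -0.60, 1 was called, Dcx, lower at -1.40 (-0.53 with FPKM + 1, short of the fold). Tubb3 at 0.60 and Stmn2 at 0.57 passed the adjusted p alone, and the summed markers went from 85.4 to 104 CPM. Of the 6 glia markers 3 were in the table, with sums of 18.8 and 20.7 CPM and Gfap at 2 and 0 reads. Of the 8 blood, vessel and fibroblast markers 6 were in the table, with sums of 19.8 and 12.2 CPM, Aif1 at 3 and 0 reads and 1 called, Pdgfrb, lower at -1.09 (-0.96 under TMM scaling, short of the fold). The part of these marker differences in the values of the 10 genes was not tested.

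Of the 10 genes, 1 was called, Tet1, which was lower after HTL. Of all genes tested 10.8% were called, 7.98% as lower and 2.81% as higher, so a single call among 10 genes is close to that background. These were 378 genes higher and 1072 lower, a split that TMM scaling moved to 553 and 798. By the adjusted p alone 8 of the 10 passed (6 lower and 2 higher), beside 38.6% of all genes tested (24.1% lower and 14.5% higher). Under each of 3 other scalings 6 passed, 4 lower and 2 higher, without Dnmt3b and Tet3, and Tdg failed with its copy summed. The adjusted p passes more readily where a gene has more reads. These shares of all genes tested are thus not matched for reads, here or for the lists below. In control FPKM the 10 genes ran from percentile 6.30 (Dnmt3l) to 94.7 (Dnmt1). Log2 ratios were below 0 for 7 of the genes (6 under TMM scaling) and for 58.7% of all genes tested. The median log2 ratio of the 10 was -0.23, against -0.14 for all genes tested, and 5 of the 10 lay below the latter. All 10 had enough reads to be tested.

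**Figure D1:**
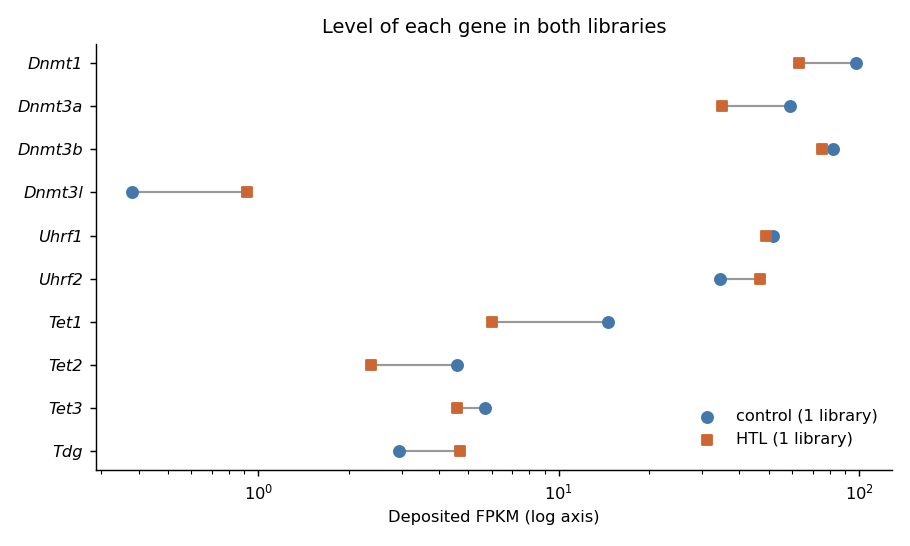
Deposited FPKM (reads scaled to transcript length and library depth, log axis) of each of the 10 genes, with a circle for the control library and a square for the HTL library, each 1 library with no error bar. Tet1 moved from 14.6 to 6.02 and Dnmt3l stayed at the bottom of the scale, from 0.380 to 0.920.

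The maintenance enzyme and its guide did not move in proportion. Dnmt1 (gene ID 13433, chr9:20711650-20757317 on the minus strand of NCBIM37, which is mm9) had 5464 control reads and 3112 HTL reads, or 97.9 and 63.2 FPKM. Its log2 ratio was -0.63 (95% interval -0.69 to -0.56), or 0.648-fold, with an adjusted p of 2.83e-84 in the exact binomial test. The p passed and the fold did not, so Dnmt1 was not called. Uhrf1 (ID 18140, chr17:56442744-56462909, plus strand), whose protein binds hemimethylated CpG and recruits DNMT1, had 1906 and 1590 reads, which correspond to 51.8 and 48.9 FPKM. The log2 ratio of Uhrf1 was -0.08 (-0.17 to 0.02), with an adjusted p of 0.183 in the exact binomial test, and its sign turned under other scalings, to 0.05 with TMM factors. A ratio of 2 genes within a library does not depend on how the libraries are scaled. For each Uhrf1 read there were 2.87 Dnmt1 reads without and 1.96 with HTL, a relative change to 0.683 (0.630 to 0.740).

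Uhrf2, a relative of Uhrf1 whose part in maintenance is less clear, went the other way. It (ID 109113, chr19:30105003-30168212, plus strand) had 1292 control reads and 1548 HTL reads. That is 34.5 and 46.9 FPKM, a log2 ratio of 0.45 (0.34 to 0.55) with an adjusted p of 1.69e-15 in the exact binomial test, short of the fold. The FPKM of Uhrf1 was 1.04 times that of Uhrf2 in the HTL library, so the genes stood nearly level there. The reads of Uhrf1 per read of Uhrf2 went from 1.48 to 1.03, a relative change to 0.696 (0.630 to 0.770).

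The genes of the de novo enzymes differed from each other. Dnmt3a (ID 13435, chr12:3806007-3914443, plus strand, 18 annotated transcripts) had 5646 control reads and 2957 HTL reads, at 59.0 and 34.9 FPKM. Its log2 ratio of -0.75 (-0.81 to -0.68) was the lowest among the 4 methyltransferase genes, with an adjusted p of 1.58e-118 in the exact binomial test, and it missed the fold. Dnmt3b (ID 13436, chr2:153475186-153513466, plus strand, 12 transcripts), the form most used in the early embryo, had 3597 and 2877 reads at 82.2 and 75.4 FPKM. Its log2 ratio of -0.14 (-0.21 to -0.07) equalled the median of all genes tested and had an adjusted p of 4.20e-04 in the exact binomial test. Under TMM scaling it was -0.01 and the adjusted p 0.906, so whether Dnmt3b passed depends on the scaling. The Dnmt3a to Dnmt3b read ratio went from 1.57 to 1.03, a relative change to 0.655 (0.613 to 0.700). On the length-corrected scale, Dnmt3b was second of the 10 in the control library, behind Dnmt1, and led after HTL. The Dnmt1 to Dnmt3b ratio of FPKM was 1.19 in the former and 0.839 in the latter. This order takes Tdg at its own listed level, while its copy Gm9855, described below, had 99.8 and 95.2 FPKM.

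Dnmt3l was close to silent in both libraries. It (ID 54427, chr10:77504692-77526367, plus strand) had 6 control reads and 14 HTL reads, or 0.380 and 0.920 FPKM. The log2 ratio of 1.33 passed the fold, but its interval ran from -0.06 to 3.07 and the adjusted p was 0.0742 in the exact binomial test, so no difference was detectable at this depth. Of the 10 genes 2 passed the fold alone, Tet1 as lower and Dnmt3l as higher, beside 17.0% of all genes tested (12.2% lower and 4.72% higher). Of the Dnmt3l exons, 67 bases overlap Aire on the opposite strand, and the counting is not stated to use strand. Upstream of its 3 annotated starts there were 5, 4 and 3 CpG sites, and the window with 5 is shown beside that of Tet1, the called gene, to set the least read gene beside it. Both are 250 bases from RefSeq on GRCm38.p6 with CpG in capitals. The Dnmt3l stretch is chr10:78042037-78042286 (plus strand, 5 CpG) and the Tet1 stretch is chr10:62887325-62887574 (minus strand, 15 CpG).
Dnmt3l: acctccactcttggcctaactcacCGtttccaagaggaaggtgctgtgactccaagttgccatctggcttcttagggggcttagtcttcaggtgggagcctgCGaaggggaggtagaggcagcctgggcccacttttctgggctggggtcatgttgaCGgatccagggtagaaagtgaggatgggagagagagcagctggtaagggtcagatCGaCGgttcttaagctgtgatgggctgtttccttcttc
Tet1: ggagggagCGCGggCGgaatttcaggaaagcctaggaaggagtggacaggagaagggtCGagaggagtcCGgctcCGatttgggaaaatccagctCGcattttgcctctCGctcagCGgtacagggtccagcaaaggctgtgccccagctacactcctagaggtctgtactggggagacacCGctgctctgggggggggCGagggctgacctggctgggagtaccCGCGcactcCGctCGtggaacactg

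Across 32851 such windows of 27025 genes the median was 6 CpG, which puts the Dnmt3l window, close to that median, at percentile 47.0 and the Tet1 window at percentile 73.6. The 10 genes had 17 windows. The most CpG sites stood before Tet2 (51, percentile 99.9) and before a start of Dnmt3a (40, percentile 98.8), genes with log2 ratios of -0.95 and -0.75. Next came starts of Uhrf1 (30, percentile 94.4), Dnmt1 (26, percentile 90.9) and Uhrf2 (23, percentile 87.4), with log2 ratios of -0.08, -0.63 and 0.45. A link between CpG number and log2 ratio was not tested. Which starts these cells used was not measured, and methylation was not measured.

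Tet1 fell, Tet2 came just short of the fold, and Tet3 moved least of the 3 dioxygenase genes. Tet1 (ID 52463, chr10:62267318-62361866, minus strand), the form that dominates in pluripotent cells and germ cell precursors, had 2162 control reads and 785 HTL reads. This is 14.6 and 6.02 FPKM, a log2 ratio of -1.28 (-1.40 to -1.16) or 0.413-fold, with an adjusted p of 1.02e-109 in the exact binomial test. Relative to the median gene the log2 ratio was -1.14, and it stayed between -1.18 and -1.14 under 3 other scalings, past the fold in each. Among all genes tested it stood at percentile 7.33. When cultures were assumed to vary by a coefficient of 0.1 the call held, and at an assumed 0.2 it was lost (adjusted p of 0.0502 in edgeR's exact test).

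Tet2 (ID 214133, chr3:133126643-133207354, minus strand), known from its mutations in blood cancers, had 443 and 202 reads, at 4.59 and 2.38 FPKM. Its log2 ratio was -0.95 (-1.19 to -0.70) with an adjusted p of 1.33e-14 in the exact binomial test, and the interval reaches past the fold used for a call. Tet3 (ID 194388, chr6:83312367-83391672, minus strand), the form of the egg and of many brain cells, had 653 and 462 reads, at 5.70 and 4.58 FPKM. Its log2 ratio was -0.31 (-0.49 to -0.14) with an adjusted p of 9.15e-04, and under TMM scaling it was -0.18 with an adjusted p of 0.0657, both in the exact binomial test. The 3 genes thus kept 1 sign under every scaling tried but spanned almost a full log2 unit.

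Ratios within each library give the same picture without any scaling. Tet1 had 3.31 reads for each Tet3 read without HTL and 1.70 with it, a relative change to 0.513 (0.443 to 0.595). Tet1 against Tet2 changed less, from 4.88 to 3.89, or to 0.796 (0.659 to 0.964). Tet2 against Tet3 went from 0.678 to 0.437, or to 0.645 (0.522 to 0.795). The intervals of all 8 pairs compared among the 10 genes leave out 1, on counting error alone.

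The summed FPKM of the 3 TET genes was 24.9 without HTL and 13 with it. Tet1 provided 58.7% of it in the former and 46.4% in the latter, and Tet3 22.9% and 35.3%. The 4 methyltransferase genes summed to 239 and 174 FPKM, of which Dnmt3b made up 34.3% and 43.2% and Dnmt1 40.9% and 36.3%. For each FPKM unit of TET transcript there were 9.60 units of Dnmt1, Dnmt3a and Dnmt3b without HTL and 13.4 with it. Both sums were therefore lower in the HTL library, the TET sum by the larger factor. This does not hold for each gene: Tet1 alone was called, and Dnmt3l had a log2 ratio of 1.33. Under TMM scaling Dnmt3b was at -0.01 and Tet3 at -0.18, with adjusted p of 0.906 and 0.0657 in the exact binomial test. The sums were not recomputed under other scalings. All these values are transcript levels, and neither protein nor enzyme activity was measured.

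**Figure D2:**
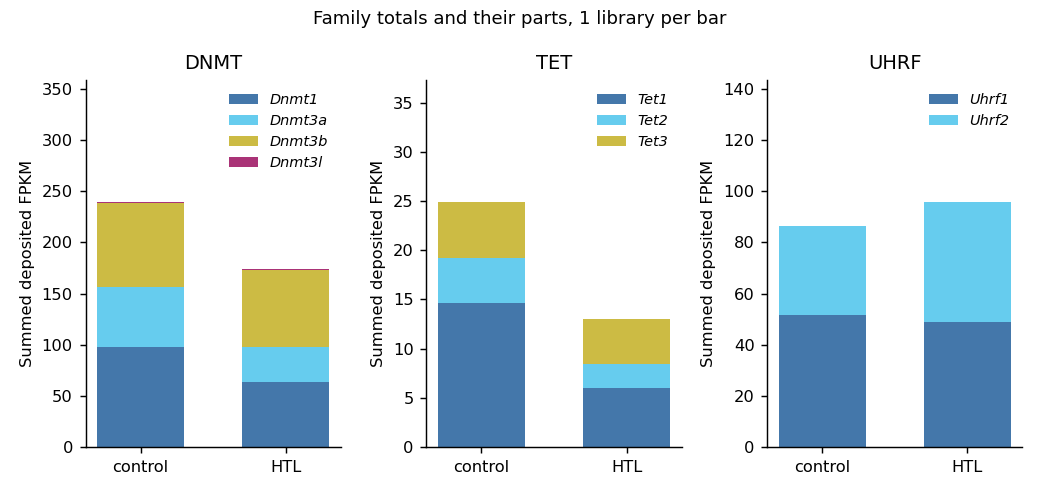
Summed deposited FPKM of the methyltransferase, TET and UHRF genes (y axes from 0, a scale for each panel), with 1 bar for each library split by gene and no error bars. The TET bar is 24.9 without HTL and 13 with it, the methyltransferase bar 239 and 174, and the UHRF bar 86.3 and 95.8.

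Tdg could not be separated well from a copy. The table gave Tdg (ID 21665, chr10:82092573-82113544, plus strand) 98 control reads and 139 HTL reads, at 2.94 and 4.71 FPKM. Its log2 ratio of 0.69 (0.31 to 1.08) had an adjusted p of 8.50e-04 in the exact binomial test. Gm9855, an intronless copy annotated as a Tdg pseudogene (chr10:41773919-41775160, minus strand), had 3006 and 2527 reads at 99.8 and 95.2 FPKM. Of the reads given to either gene, Tdg took 3.17% without HTL and 5.22% with it. The parent gene was thus listed far below its copy.

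The sequences show how little there is to tell them by. Over 2914 aligned bases of a Tdg transcript of 2959 bases, 99.3% matched the genome at the copy and 19 did not, 9 of these in the coding sequence of 1194 bases. The match runs past the annotated ends of Gm9855, which span 1242 bases. Of the 3453 stretches of 50 bases in the longest Tdg transcript, 61.1% stand unaltered at that locus, and 45.9% in a further coding gene, Gm5806. For the other 9 genes no such stretch was found in another coding gene or at that locus. A 60-base part of the coding sequence, bases 1053 to 1112, with 4 mismatches in capitals is shown because such positions are what assigns a read to either locus. The Tdg bases are chr10:82111324-82111383 in exon 10 (plus strand) and those of the copy chr10:41774001-41774060 (minus strand), both of NCBIM37.
Tdg: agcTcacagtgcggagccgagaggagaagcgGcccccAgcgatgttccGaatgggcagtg
Gm9855: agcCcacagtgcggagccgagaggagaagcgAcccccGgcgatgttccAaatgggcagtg

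With the estimated reads of both summed, there were 3104 control and 2666 HTL reads. Gm5806 was left out, so the sum does not hold every locus that shares Tdg sequence. The log2 ratio of the sum was -0.034 (-0.11 to 0.041), with an adjusted p of 0.472 in the exact binomial test, so the sign of the Tdg value turned. Tdg against Tet3 changed 2.0-fold (1.49 to 2.70) by its own reads and 1.21-fold (1.06 to 1.39) by the sum. This summing was added after the data had been seen. Tdg also shares 367 exon bases with Glt8d2 on the opposite strand, as Dnmt3a shares 133 with Gm10485.

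Long transcripts as a whole had lower ratios in the HTL library, and 4 of the 10 genes (Dnmt3a, Tet1, Tet2 and Tet3) belong to the longest of 10 equal bins of the genes tested, with 6190 bases and over. Genes of that bin had a median log2 ratio of -0.38, against 0.14 for the shortest bin, and 15.2% of them were called lower and 1.26% higher. Each gene was therefore set beside the 500 genes nearest to it in length and reads. Tet1, with 14082 bases, stood at percentile 3.8 of its 500, whose median was -0.33, a difference of -0.94. Among those 500, 11.2% were at -1 or lower. Dnmt1 was at percentile 17.4, Dnmt3a at 18.6 and Tet2 at 17.4, with differences of -0.45, -0.44 and -0.63.

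Tet3 had a log2 ratio close to that of similar genes, at percentile 55.6 and a difference of 0.07. Dnmt3b and Uhrf1 were at percentiles 43.6 and 44.8. On the upper side Uhrf2 was at percentile 87.0, Tdg at 91.2 and Dnmt3l at 92.6 of their own sets. In all, 6 of the 10 lay below the median of their set, 7 lay outside its middle 50% and 0 outside its middle 95%. The part of length in these ratios was not tested further.

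**Figure D3:**
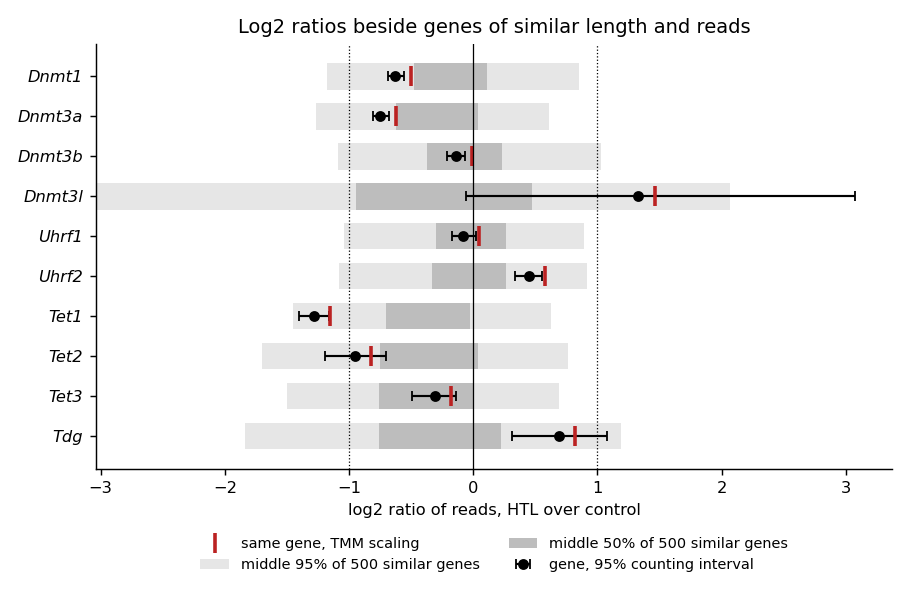
Log2 ratio of reads, HTL over control (x axis), of each gene as a black point with its 95% counting interval, over bands for the middle 50% (dark) and 95% (light) of the 500 genes most like it in length and reads, with dotted lines at the fold used for a call. All 10 points lie inside the light band, Tet1 nearest its lower edge of -1.45, and the red ticks show that TMM scaling moves each gene up by about 0.13.

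**Figure D4:**
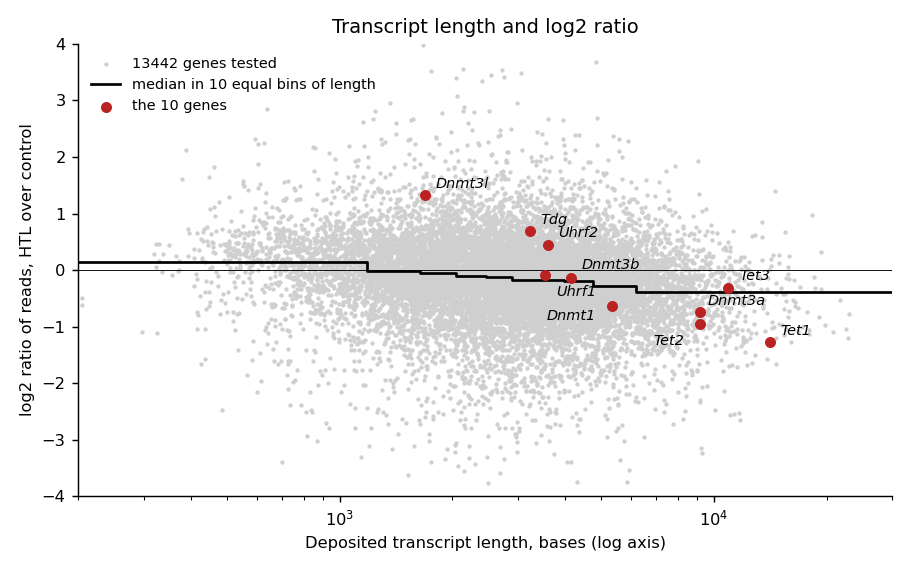
Deposited transcript length in bases (log axis) against the log2 ratio, HTL over control, of the 13442 genes tested in grey (85 lie outside the axes), the 10 genes in red, and the median in 10 bins of equal gene number as a black line. The line goes from 0.14 for the shortest genes to -0.38 for the longest, and Tet1 lies at -1.28.

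No motif searched was shared by all 10 genes, and none of the motifs contains another. In the 250 bases before the annotated starts, read on both strands, neither E2F motif (TTTGGCGC and TTTCCCGC) nor the ATF4 composite motif (TGATGNAA) occurred in any of the 17 windows. They occur in 0.417%, 0.895% and 3.45% of all windows. The cAMP response element (TGACGTCA, 1.55% of windows) stood before Tdg. The NF-Y motif (CCAAT, 33.8% of windows) stood before Dnmt1, Uhrf1, Tet3 and Tdg, whose log2 ratios ran from -0.63 to 0.69. A missing match says only that these letters are not in these windows.

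None of the genes listed as readers or as partners of the methyltransferases was called. Of 10 genes listed as methyl-CpG readers or as MBD relatives of these, all tested, 2 passed the adjusted p alone, both lower. They were Mbd3, a subunit of the NuRD complex, with 1186 and 706 reads, and Mbd4, a glycosylase, with 374 and 238. The median of this list was -0.18, or -0.05 under TMM scaling. Of 15 tested partners and recruiters 8 passed it, all lower, beside the 24.1% of all genes tested that did so. Under TMM scaling 4 passed as lower and 3 as higher, so the shared direction depends on the scaling, and the list median went from -0.26 to -0.13. Nsd1, which makes the H3K36 dimethyl mark that DNMT3A binds, had 2708 control reads and 1436 HTL reads, a log2 ratio of -0.73 (-0.82 to -0.64). Setd2, the enzyme of the trimethyl mark that DNMT3B binds, was at 3066 and 2707 reads, with a log2 ratio of 0.01 (-0.07 to 0.08). Whether either goes with Dnmt3a or Dnmt3b was not tested. Hells, a remodeller needed for methylation of repeats, was at -0.16 and Pcna, the clamp that tethers DNMT1 to the fork, at 0.02.

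Of the 10 genes listed as TET partners, 2 were called, both lower, beside 7.98% of all genes tested called lower. The list median was -0.28, or -0.15 under TMM scaling. Ogt, the O-GlcNAc transferase that TET proteins bind, had 1914 control reads and 347 HTL reads. Its log2 ratio of -2.28 (-2.45 to -2.11) had an adjusted p of 8.27e-218 in the exact binomial test. Cxxc4, whose protein IDAX binds TET2, was at 87 and 7 reads, with a log2 ratio of -3.37 (-4.81 to -2.35), or -1.12 with FPKM + 1. Both Ogt and Tet1 were called, Ogt with the larger change. Idh1, which makes 2-oxoglutarate, was at 630 and 713 reads, with a log2 ratio of 0.36, past the adjusted p and short of the fold.

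Base excision and accessory genes went both ways, with 2 of 13 called higher and 1 lower, beside 2.81% and 7.98% of all genes tested. Gadd45a, a stress-induced gene that has been tied to active demethylation, had 19 control reads and 109 HTL reads, a log2 ratio of 2.67 (1.99 to 3.49). Gadd45b was at 60 and 128 reads, with a log2 ratio of 1.27 (0.83 to 1.75). Lig3, the ligase that seals repaired nicks, fell from 1697 to 627 reads, a log2 ratio of -1.25 (-1.39 to -1.12). The list median was -0.12, or 0.01 under TMM scaling, so it has no stable sign.

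The methyl donor genes had the lowest median of the lists on DNA methylation, -0.72, or -0.59 under TMM scaling. Of 10 tested, 3 were called, all lower, and 7 passed the adjusted p alone, all lower, beside 7.98% and 24.1% of all genes tested. Under TMM scaling 3 were called lower, and 6 passed the adjusted p as lower and 1 as higher. Mat2a, which encodes the catalytic subunit for S-adenosylmethionine synthesis, went from 2534 control to 385 HTL reads, a log2 ratio of -2.53 (-2.69 to -2.38). Mtrr, which reactivates methionine synthase, was at 424 and 156 reads, with a log2 ratio of -1.25 (-1.53 to -0.99). Ahcy, which splits S-adenosylhomocysteine and is named here after its values were seen, had 158 and 61 reads at -1.18. Gm4737, which the table annotates as an adenosylhomocysteinase too, had 8382 and 5272, and the sum of both gives -0.49 (-0.54 to -0.44), short of the fold and leaving 2 called. The list median of -0.72 takes Ahcy by its own reads and was not recomputed with the sum.

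Replication genes, which are active in the phase in which Dnmt1 and Uhrf1 are most transcribed, had a median log2 ratio of 0.09, or 0.22 under TMM scaling, and 0 of 20 were called. By the adjusted p alone 8 passed as higher and 3 as lower, beside 14.5% and 24.1% of all genes tested. Under TMM scaling 11 passed as higher and 2 as lower. Cdc6, which loads the helicase at origins, had 986 and 1548 reads (0.84), and Mcm3, a subunit of that helicase, 7118 and 7801 (0.32). On the lower side Ccne2, a cyclin of S phase entry, had 250 and 127 (-0.79) and Rrm2, a ribonucleotide reductase subunit, 1745 and 1053 (-0.54), on either side of the Dnmt1 value of -0.63.

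**Figure D5:**
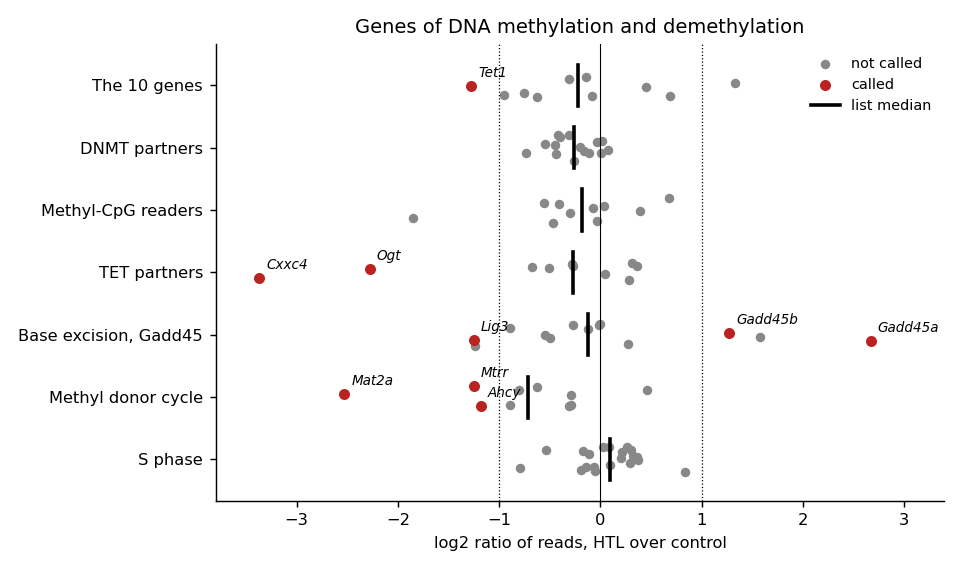
Log2 ratio of reads, HTL over control (x axis), for the tested members of 7 gene lists in rows, with called genes in red and named, other genes in grey (vertical scatter within a row has no meaning), list medians as black bars and dotted lines at the fold used for a call. The 10 genes have a median of -0.23 and Tet1 as their only call, and the methyl donor cycle has the lowest median, -0.72.

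Of the germline genes that promoter methylation is known to silence in other cells, most had few reads, and Sycp1 held 133 of the 165 control reads of the list. Of 18 listed, 11 were in the table and 6 could be tested. The 2 called were both higher, beside 2.81% of all genes tested called higher, and the median of the 6 was 0.46. Tuba3a, a testis tubulin gene, had 0 control reads and 47 HTL reads, at least 17.8-fold higher when the control library is set to the floor of 3 reads, while the exact counting interval starts at 13.9-fold. It has a near-identical copy, Tuba3b, with 0 and 3 reads, so the split between them is uncertain. Tex19.1, a germline gene named here after its values were seen, had 3 and 35 reads, a ratio of 13.3 (4.18 to 67.4). Sycp1, of the synaptonemal complex of meiosis, had 133 and 59, a log2 ratio of -0.98 (-1.45 to -0.53). In the control library 7 of the 11 had 3 reads or fewer, in the HTL library 4. Of the 6 tested, 3 had log2 ratios below 0 and 3 above.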

How the data were processed

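RNA of 1 control and 1 HTL-treated NE4C culture, grouped by sample title, was sequenced on BGISEQ-500 after TruSeq library preparation. In the methods of the study, the authors mapped reads to the mouse genome and normalized matched reads with RSEM (spelled RESM there), and the fractional deposited values are read here as its estimated counts per gene. The aligner is not given in the sources used here, and the submitters' processing notes name mm9. The deposited estimated counts are not normalized (21.8% of control and 20.2% of HTL values were fractional) and were rounded. FPKM as deposited is corrected for length and depth, and its lowest value is 0.0100. The deposited table also holds the transcript length and the authors' log2 ratio, p-value and FDR, and these comparison columns were not used.

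Genes with 10 reads or more in both libraries together (13442 of 16803) were tested by a two-sided exact binomial test against the library totals (scipy 1.17.1), with Benjamini-Hochberg adjustment. For log2 ratios 0.5 read was added, and 95% intervals are exact Clopper-Pearson. A count of 3 reads, the floor, is 0.290 CPM (control) or 0.330 CPM (HTL). With no molecular identifiers, reads are not independent molecules. Ratios of 2 genes carry exact conditional intervals. Neighbours were the 500 genes nearest in rank of length and reads. Named genes were the 10 members and, from each of 12 other lists, up to 2 called rises and 2 called falls of the largest size with a mean of 20 reads or more. Further list genes were named after their values were seen, for their role or to show both directions. The members and lists were chosen with earlier results of these data known. TMM factors and assumed-variation tests came from edgeR 4.0.16 and median-of-ratios factors from DESeq2 1.42.0, in R 4.3.3. Other filters, added counts and cutoffs were tried as well. The procedure was tested on simulated data. Positions are from GENCODE vM1 (NCBIM37) and promoters from RefSeq (GRCm38.p6). Vprbp stood for its later symbol Dcaf1.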

Additional observations from a re-analysis of the deposited data

How the results depend on the processing

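No paired analysis was possible because each group had 1 library, and no replicate could be left out. With no residual degrees of freedom, neither edgeR's quasi-likelihood test nor DESeq2 could be fitted. Tet1 remained the 1 gene of the 10 called under 3 other scalings, other filters, 5 reads added, FPKM + 1 and an assumed coefficient of variation of 0.1 between cultures. At an assumed 0.2 or 0.4 there were 0 calls among the 10 (Tet1 had an adjusted p of 0.0502 and 1.00 in edgeR's exact test) and 120 or 6 among all genes, against 1450. The adjusted p alone gave 8 of the 10 (6 under each other scaling) and 5193 of all, a fold cutoff of 2 on the log2 scale gave 0 and 287, and one of 0.5 gave 5 and 3637. FPKM + 1 left 816 calls among all genes. By the fold alone 2 of the 10 passed, and 1 with a mean of 50 reads or more, with 5 reads added or with FPKM + 1, where Dnmt3l was lost. Scaling shifted all log2 ratios by 0.13 (TMM), 0.14 (median of ratios) or 0.09 (upper quartile). Calls were then 553 higher and 798 lower, 559 and 788, or 498 and 860, against 378 and 1072. Uhrf1 turned to 0.05, 0.06 and 0.02, and Tdg to -0.03 with its copy summed. With TMM and median of ratios, list medians turned to 0.01 and 0.01 (base excision), 0.02 and 0.03 (neural stem cell markers) and 0.02 and 0.02 (pluripotency markers). Dcx, Sox1, Vim, Ahcy and Pdgfrb lost their calls with FPKM + 1, and Vim and Pdgfrb with each scaling (-0.88 and -0.96 with TMM). With 200 or 1000 neighbours, or nearness on log10 scales, 6 genes stayed below the median of similar genes, and Tet1 lay at percentile 3.50, 4.4 and 5.60. FPKM + 1 also moved Cxxc4 from -3.37 to -1.12, with its call kept. The causes of these shifts were not tested.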
